A study of Mus musculus with 11 samples.

Results

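Ep300-KO germinal center B cells were compared with WT germinal center B cells in 3 Ep300-KO and 5 WT libraries, 8 of the 11 libraries of the series. The members were all 16515 genes, of 48593 counted, with a mean of at least 10 normalized reads over the 11 libraries. Ep300-KO mice were Crebbp+/+;Ep300fl/fl;Cg1cre/+, so both floxed Ep300 alleles could be deleted by a Cre driven from the Cγ1 constant region locus, which acts in germinal center B cells. WT mice were Crebbp+/+;Ep300+/+;Cg1cre/+ and carried the same Cre. The 3 Crebbp-KO libraries (Crebbpfl/fl;Ep300+/+;Cg1cre/+) entered the fit and served as a second reference. Mice received sheep red blood cells by intraperitoneal injection, and on day 12 B220+/PNA+/CD95+ cells were sorted from the spleen for RNA sequencing. The labels name the WT mice as littermates from Crebbp crosses and give the Ep300-KO mice no WT littermate, so cross or genetic background and the loss of Ep300 cannot be told apart. They give no age, sex, litter or batch, and p-values measure the spread between these libraries.

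EP300 (p300) is a transcriptional coactivator that acetylates histones and other proteins at enhancers and promoters, and CREBBP is its closest relative. Germinal centers form in B cell follicles after immunization. Their B cells cycle rapidly in a dark zone, where antibody genes are mutated, and test their receptors against antigen in a light zone, from which selected cells return or leave as memory B cells and plasma cells.

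Values are the authors' read counts after division by a size factor of each library, called normalized counts. They are listed for WT_41, WT_46, WT_4, WT_7 and WT_288 in that order, then for p300-KO_18, p300-KO_287 and p300-KO_289. Fold changes are log2, Ep300-KO against WT, on the log2(value + 1) scale, with a standard error (SE) where given. A gene was called, and is said to have risen or fallen, when its limma p, Benjamini-Hochberg adjusted over all 16515 genes, was below 0.05. All adjusted p are of this kind unless another tool is named.

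Depth ran from 53550726 to 132861266 reads in WT and from 59879689 to 103858626 in Ep300-KO. p300-KO_18 held Xist at 98751 together with a sum of 9852 over 4 Y-linked transcripts, whereas each other library held one at a high level and the other near 0. WT_46 stood apart from the other WT libraries on the first principal component. Many, but not all, of the counts that the text leads with are therefore also given without these libraries, singly or together. Germinal center markers stood high in all 8 libraries, with a summed level over 16 genes of 737358 to 797490 in WT and 747923 to 819831 in Ep300-KO. Of the neutrophil markers, S100a8, Ly6g, Elane and Mpo were listed at 0 in all 8.

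The targeted transcript was examined first. Ep300 (chromosome 15, 81585351 to 81652077, GRCm38) stood at 21460.3, 22498, 19310.3, 22238 and 20833 in WT and at 14829, 14796 and 13773 in Ep300-KO. The highest Ep300-KO library lay below the lowest WT library. The fall was 0.55 on the log2 scale (SE 0.061, adjusted p = 0.00015; exact two-sided permutation test p = 0.0179, the smallest that 5 against 3 libraries allow). Counts are per gene, not per exon, so the deleted exons cannot be told apart from the rest of the transcript. Crebbp stood at 9443, 9156, 8163, 9584 and 7984 in WT and 10073, 10952 and 10218 in Ep300-KO. The groups did not overlap, yet the log2 difference of 0.24 did not pass (adjusted p = 0.0551; exact permutation p = 0.0357). The permutation p was 0.0571 without WT_41 or WT_7, 0.0857 without WT_46 and 0.0952 without any 1 Ep300-KO library, where the smallest possible is 0.0476. Against Crebbp-KO, Ep300 was also lower (log2 -0.73, adjusted p = 7.08e-05).

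**Figure D1:**
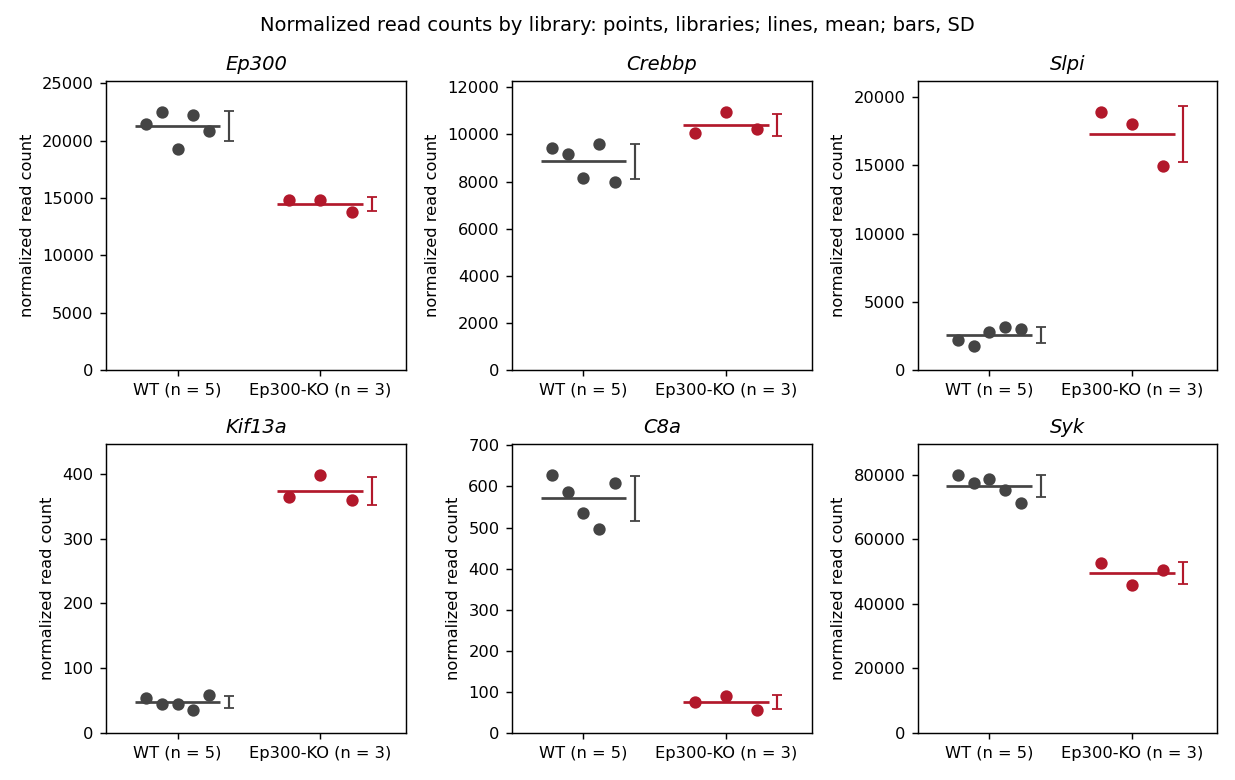
Normalized read counts of 6 genes in each of 5 WT and 3 Ep300-KO libraries, with the mean (line) and SD (bar) of each group on axes that start at 0. The groups do not overlap for any of the 6, and Ep300-KO libraries are higher for Crebbp (not called), Slpi and Kif13a and lower for Ep300, C8a and Syk.

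Ep300-KO differed from WT by moderate changes in many genes. Of 16515 genes, 1970 were called (11.9%), 965 higher (5.84%) and 1005 lower (6.09%). The median absolute log2 change of called genes was 0.48, and 417 (2.52%) changed at least 2-fold, 238 higher (1.44%) and 179 lower (1.08%). The libraries of the groups did not overlap for 920 of the called genes that rose and 957 of those that fell. Over all genes, called or not, 3144 did not overlap (19.0%), 1591 higher (9.63%) and 1553 lower (9.40%). Leaving out p300-KO_18, p300-KO_287 or p300-KO_289 left 1255, 1248 and 1169 calls. Leaving out WT_46 gave 2027, and WT_46 with p300-KO_18 gave 1363. The direction of all 1970 was the same in each of these fits, which share most of their libraries with the fit that made the calls.

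Among the genes with the largest rise, Slpi, which encodes a secreted inhibitor of serine proteases, had the highest counts. Slpi stood at 2242, 1761, 2823, 3162 and 3027 in WT and 18904, 18034 and 14946 in Ep300-KO. Every Ep300-KO library was far above every WT library (log2 2.76, SE 0.16, adjusted p = 1.38e-06). Crebbp-KO held 2753 ± 258 (SD, n = 3, here and for later Crebbp-KO values), and the difference between the knockouts was also called (log2 2.65, adjusted p = 5.29e-06). Kif13a, a kinesin motor of vesicle transport, stood at 54.3, 44.6, 44.6, 34.9 and 58 in WT and 364, 399 and 359.5 in Ep300-KO. Its Ep300-KO libraries were close to each other and far above WT (log2 2.98, SE 0.20, adjusted p = 3.74e-06).

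Other large rises were in genes that were low in WT. Nes, which encodes the intermediate filament protein nestin, stood at 0, 0, 9.28, 8.72 and 4.68 in WT, with 0 reads in WT_41 and WT_46, and at 90.2, 163 and 87 in Ep300-KO. Klhl23 stood at 10.5 to 67.9 against 186 to 506, and Kdelc2 at 2.63 to 14.5 against 92.1 to 99.1. Slc25a24, a mitochondrial carrier of adenine nucleotides, stood at 8.43 to 29.1 against 159.8 to 261. Pls3, an actin-bundling plastin, stood at 20.4 to 45.7 against 138 to 233, and Fmnl2, a formin that builds actin filaments, at 9.37 to 43.6 against 83.9 to 133. Gpx7, an endoplasmic reticulum peroxidase, stood at 7.88 to 29.1 against 70.3 to 143, Dse, a dermatan sulfate epimerase, at 9.37 to 23.3 against 71.1 to 115, and the membrane protein gene Tmem176a at 37.5 to 65 against 234 to 368. Thy1, a surface glycoprotein of T cells, stood at 15.8 to 77.3 against 184 to 427, while the T cell genes Cd3d and Cd3e were at most 10.3 and 5.12 in all 8 libraries. These log2 changes ran from 2.40 (Fmnl2) to 4.95 (Nes), and on low counts their size depends on the pseudocount of 1. Of these 10 genes, only Nes and Tmem176a were called higher than in Crebbp-KO (adjusted p = 0.0198 and 0.000786). For the other 8 the difference between the knockouts did not pass (adjusted p = 0.0979 for Pls3 to 0.779 for Slc25a24). Among these 8, Slc25a24, Klhl23 and Kdelc2 were also called higher in Crebbp-KO than in WT. Their log2 changes there were 3.06, 2.97 and 2.44 (adjusted p = 0.00129, 0.00602 and 0.00515).

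On the lower side, C8a, which encodes a chain of complement C8, fell from 629, 586, 535, 497 and 609 in WT to 76.4, 90.3 and 56.3 in Ep300-KO. The groups were far apart (log2 -2.95, SE 0.16, adjusted p = 7.07e-07), and C8a was also below Crebbp-KO (421 ± 70.9, adjusted p = 9.09e-06). Fam50b stood at 105 to 167 in WT and 7.99 to 53.7 in Ep300-KO, Tcerg1l at 69.3 to 145 and 17.9 to 42.9, and Adgb, which encodes androglobin, at 69.6 to 186 and 17.9 to 38.6. Sh2d1b1, which encodes an adaptor for SLAM receptors, stood at 529 to 940.2 and 106 to 175, and was lower still in Crebbp-KO at 79.6 ± 43.7. The beta globin gene Hbb-bt stood at 233 to 502 and 39.7 to 72.8, a difference in a near-identical gene pair whose reads can be shared. Gpm6a, a membrane glycoprotein of neurons, stood at 1238 in WT_46, at 275 to 337 in the other WT libraries and at 64 to 81.5 in Ep300-KO. H2-Q2, a class I-like gene of a paralog family, stood at 51.5 to 145 and 10.9 to 17.9, Fam174b at 40.8 to 69.8 and 2.91 to 26.9, and the GTPase gene Rab44 at 62.2 to 129 and 5.12 to 58.2. Rab44 lost its call without p300-KO_287, p300-KO_289, WT_288, WT_41, WT_46 or WT_7 (adjusted p up to 0.139, without p300-KO_289).

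A larger share of genes was called close to Ep300 on chromosome 15 than elsewhere. Within 5 Mb (a distance in megabases), 42 of 173 tested genes were called (24.3%), 14 higher and 28 lower. Between 5 and 20 Mb 27 of 216 were called (12.5%), beyond 20 Mb 17 of 195 (8.72%), and on the other chromosomes 1873 of 15793 (11.9%). The rates were not compared by a test. The 42 became 26, 28 and 24 without p300-KO_18, p300-KO_287 and p300-KO_289, and 43 without WT_46. Alleles linked to the targeted locus and direct effects of the deletion cannot be told apart in this design.

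**Figure D2:**
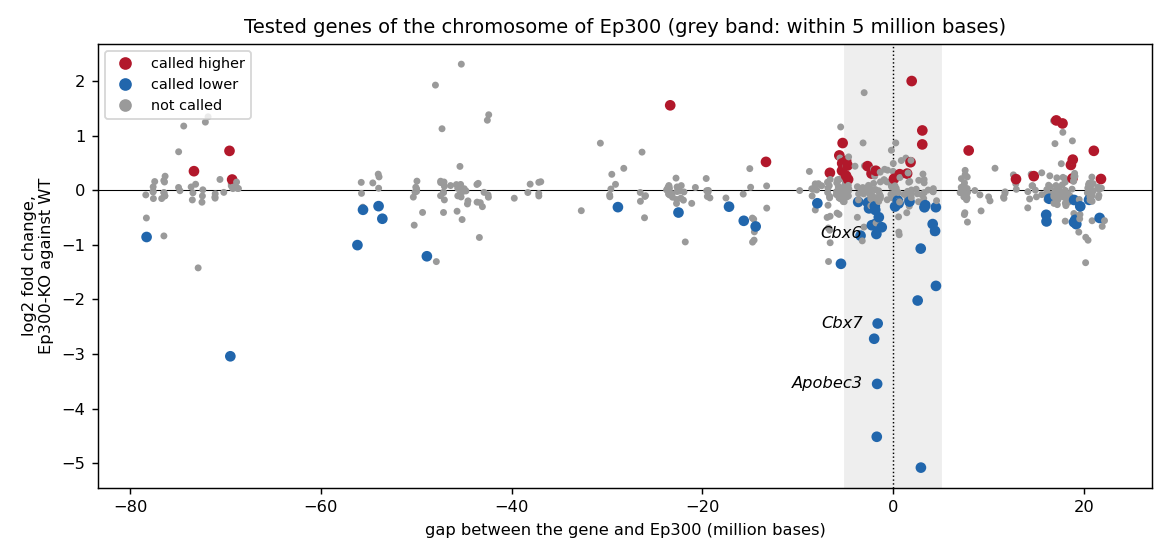
Log2 fold change, Ep300-KO against WT, of each tested gene of chromosome 15 against its gap to Ep300 in Mb, with called genes in red (higher) and blue (lower). Within the grey band of 5 Mb either side, 42 of 173 genes were called, and Apobec3 and Cbx7 lie far below the other abundant genes.

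Apobec3, a cytidine deaminase that restricts retroviruses, had the smallest p of all genes. Apobec3 (chromosome 15, 79891659 to 79915906) stood at 44999, 39873, 42699, 40883 and 41232 in WT and 3441, 3573 and 3735 in Ep300-KO. The Ep300-KO libraries were far below WT and differed little from each other (log2 -3.55, SE 0.051, adjusted p = 1.71e-13). Its neighbour Cbx7 (chromosome 15, 79915807 to 79971119), a chromobox subunit of polycomb repressive complex PRC1, stood at 8537, 7827, 6555, 7338 and 6294 in WT and 1241, 1468 and 1312 in Ep300-KO (log2 -2.44, adjusted p = 1.7e-08). Cbx6, another chromobox gene beside it, stood at 7603 to 7946 and 4288 to 4780.2 (log2 -0.80). The groups did not overlap for either chromobox gene. The annotated ends of Apobec3 and Cbx7 overlap, and without strand reads from the overlap cannot be told apart. Against Crebbp-KO, Apobec3 (log2 -3.58), Cbx7 (-2.22) and Cbx6 (-1.04) were also called lower.

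Further called neighbours were examined in order of p. Ift27, a subunit of the ciliary transport complex, fell by 0.83 on the log2 scale, the deubiquitinase gene Josd1 fell by 0.62 and Gramd4 fell by 0.75. Gm49412, a predicted gene at 9.28 to 32.8 in WT, was 0 in all 3 Ep300-KO libraries. Rpl3, which encodes a protein of the large ribosomal subunit, stood at 99963, 99228, 105678, 90374 and 93156 in WT and 73639, 63781 and 70781 in Ep300-KO (log2 -0.49, adjusted p = 0.000751). The pseudogene Rpl3-ps1, chosen after its values were seen, stood at 3221, 3083, 3237, 2818 and 2868 in WT and 24991, 19795 and 24689.7 in Ep300-KO (log2 2.92, adjusted p = 8.94e-10). The parent gene was low where its copy was high, and near-identical copies can share reads, so both values are uncertain.

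**Figure D3:**
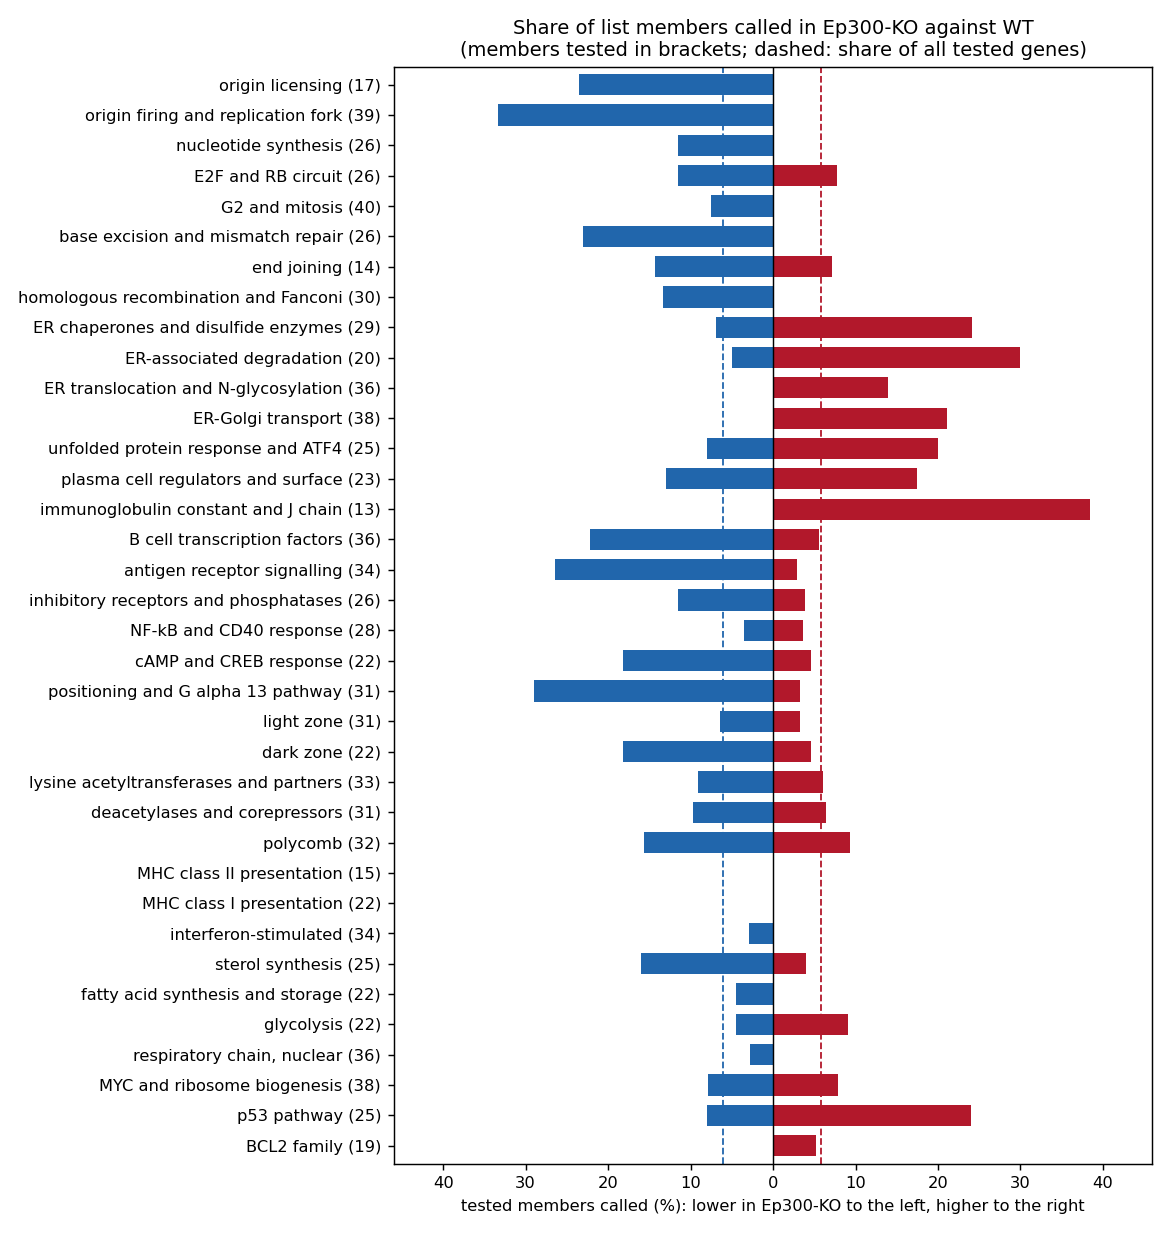
Share of the tested members of 36 gene lists called lower (left, blue) or higher (right, red) in Ep300-KO against WT, in percent, with the number tested in brackets and dashed lines at 6.09% and 5.84%, the shares over all 16515 genes. Lists of DNA replication, antigen receptor signalling and cell positioning extend furthest to the left, and the lists of immunoglobulin genes, endoplasmic reticulum (ER) degradation and chaperones, and the p53 pathway furthest to the right.

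A part of the transcripts for DNA replication fell in Ep300-KO, and none rose. Of 17 genes that license replication origins 4 fell and 0 rose (median log2 -0.18), and of 39 that fire origins or form the replication fork 13 fell and 0 rose (median -0.18), beside a median of -0.01 over all tested genes. All 39 fork genes had a log2 change below 0. For 24 of them the groups did not overlap, as for 9.40% of all tested genes on the lower side. Of 26 genes of nucleotide synthesis 3 fell and 0 rose (median -0.09). Called were 23.5% of the licensing, 33.3% of the fork and 11.5% of the nucleotide list. The share over all tested genes was 11.9%, near that of the nucleotide list. The 13 became 9, 5 and 10 without p300-KO_18, p300-KO_287 and p300-KO_289, 8 without WT_288 and 8 without WT_7, and the 4 became 1, 1 and 4 without the Ep300-KO libraries and 2 without WT_288. Without WT_46 and p300-KO_18 together 10 fork and 1 licensing genes fell. At an unadjusted p below 0.05, 26 fork, 9 licensing and 6 nucleotide genes were lower and 0 were higher. edgeR called 13, 4 and 3 of the lists lower and DESeq2 18, 6 and 4, with 0 higher for both.

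Pold1, which encodes the polymerizing subunit of DNA polymerase delta, stood at 25245, 27057, 26919, 25810.4 and 26118 in WT and 20287, 18335 and 19711 in Ep300-KO. All Ep300-KO libraries were below all WT libraries (log2 -0.43, SE 0.052, adjusted p = 0.000259). Cdt1, which loads the MCM helicase onto origins, stood at 8678, 8693, 8905, 8357 and 8345 and 6732, 6103 and 6719 (log2 -0.40, adjusted p = 0.000512). Gins1, part of the active helicase, fell by 0.48, and Chaf1b, which deposits histones behind the fork, by 0.45. The clamp loader genes Rfc3 and Rfc4 fell by 0.37 and 0.32. Pcna, the sliding clamp, fell by 0.28, and the helicase genes Mcm6 and Mcm7 by 0.24 and 0.26. Leaving out p300-KO_18, p300-KO_287 or WT_288 ended the calls of Pcna, Mcm6 and Mcm7 (adjusted p up to 0.155, 0.118 and 0.142), and leaving out WT_4 or WT_7 those of Pcna and Mcm7. In nucleotide supply, Dck, the kinase that salvages deoxycytidine, stood at 32196, 34692, 34739, 35118 and 37991 in WT and 22202, 23185 and 24909.8 in Ep300-KO. Its groups were well apart (log2 -0.58, SE 0.063, adjusted p = 0.000145), and Dck was also below Crebbp-KO (36753 ± 2443, adjusted p = 0.000158). Tk1, the thymidine kinase, fell by 0.18 (adjusted p = 0.0449, up to 0.173 and not called without p300-KO_287, p300-KO_289, WT_288, WT_4, WT_41, WT_46 or WT_7).

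Promoters of these genes are shown because E2F factors, which activate S phase genes, bind sites of the kind TTTCCCGC or TTTGGCGC. These letters were searched on both strands from 250 bases before to 50 after each start in the RefSeq promoter table of GRCm38.p6. They were found for 7 of the 16 matched replication and nucleotide genes that fell (20 fell in all), for 16 of 69 matched tested genes of the 3 lists (23.2%) and in 514 of all 32851 promoters (1.56%). Among the 10207 of 16515 tested genes with a promoter in the table, 344 held one (3.37%). A match is not shown to be a bound site. An ETS motif, CCGGAAGT, was found for 5 of the 16 that fell (31.3%) and 12 of the 69 (17.4%), in 9.30% of tested genes and in 3.89% of all promoters. An E box, CAGCTG or CAGGTG, was found for 2 of the 16 and 14 of the 69 (20.3%), against 34.3% and 32.9%. A CRE, TGACGTCA, was found for 0 of the 16 and 3 of the 69 (4.35%), against 3.58% and 1.79%. The 250 bases before the start of 3 origin licensing genes that fell are printed with the matches in capitals, at chr1:128359706-128359955, minus strand for Mcm6, chr5:138171884-138172133, minus strand for Mcm7 and chr7:128740430-128740679, minus strand for Mcmbp, which encodes an MCM-binding protein.
Mcm6: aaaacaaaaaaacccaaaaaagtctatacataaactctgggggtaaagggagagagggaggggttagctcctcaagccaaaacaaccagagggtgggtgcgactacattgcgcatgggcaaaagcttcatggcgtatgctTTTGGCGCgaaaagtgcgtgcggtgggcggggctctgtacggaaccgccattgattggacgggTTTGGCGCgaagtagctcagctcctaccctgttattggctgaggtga
Mcm7: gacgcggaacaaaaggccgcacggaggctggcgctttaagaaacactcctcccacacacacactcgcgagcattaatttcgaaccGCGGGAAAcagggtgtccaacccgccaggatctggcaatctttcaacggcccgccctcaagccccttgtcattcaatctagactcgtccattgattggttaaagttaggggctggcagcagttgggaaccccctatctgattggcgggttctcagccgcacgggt
Mcmbp: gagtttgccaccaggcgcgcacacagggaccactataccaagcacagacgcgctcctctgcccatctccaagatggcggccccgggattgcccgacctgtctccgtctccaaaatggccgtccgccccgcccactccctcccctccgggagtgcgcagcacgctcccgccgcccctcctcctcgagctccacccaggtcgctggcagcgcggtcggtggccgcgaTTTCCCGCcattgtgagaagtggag
Mcm6 carries 2 matches, beginning 110 and 47 bases before the start, and Mcm7 and Mcmbp carry 1 each, at 165 and 25 bases. Mcmbp (log2 -0.22) was not called without p300-KO_18 or p300-KO_287.

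The cell cycle control genes moved in both directions. In the E2F and RB list, 2 of 26 rose and 3 fell. Cdkn1b, the CDK inhibitor p27, stood at 2006, 1398, 1476, 1751 and 1675 in WT and 2529.8, 2721 and 2555 in Ep300-KO (log2 0.66, adjusted p = 0.00141). All Ep300-KO libraries were above WT, and Crebbp-KO held 2662 ± 116 (log2 difference between the knockouts -0.03, adjusted p = 0.891). Tfdp2, a dimerization partner of E2F, rose by 0.57. E2f1 itself fell by 0.27, and Cdkn1a, the CDK inhibitor p21, by 0.71, while Rbl1, which encodes the RB relative p107, fell by 0.19 (adjusted p = 0.0472, up to 0.177 and not called without p300-KO_18, p300-KO_287, p300-KO_289, WT_288, WT_4, WT_46 or WT_7). The 3 became 2, 0 and 2 without p300-KO_18, p300-KO_287 and p300-KO_289, since E2f1 (adjusted p = 0.0531) and Cdkn1a (0.0874) missed the threshold without p300-KO_287, and 2 without WT_288 or WT_4. Genes of G2 and mitosis stood close to the background, with 3 of 40 lower, 0 higher (1 at an unadjusted p below 0.05 and with DESeq2, 0 with edgeR) and a median of -0.03. Those 3 were Nek2 (log2 -0.36), a centrosome kinase, Cdc25b (-0.29), a phosphatase that activates CDK1, and Pttg1 (-0.32, not called without p300-KO_287 or p300-KO_289), which encodes securin.

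DNA repair genes that act on damaged bases were among those that fell. Of 26 genes of base excision, mismatch repair and translesion synthesis, 6 fell and 0 rose (median -0.13), with 5 to 7 lower in fits without 1 library. At an unadjusted p below 0.05 and with DESeq2 1 gene was higher, and with edgeR 0. Hmces, which shields abasic sites, stood at 38683, 41665, 37268, 36337 and 36601 in WT and 25735, 23326 and 24172 in Ep300-KO. The groups were far apart relative to their spread (log2 -0.64, SE 0.054, adjusted p = 2.75e-05), and Crebbp-KO stood at 42813 ± 586 (adjusted p = 1.06e-05 between the knockouts). Ung, the glycosylase that removes uracil from DNA, fell by 0.34 (adjusted p = 0.0152, 0.0712 without p300-KO_287, and not called without p300-KO_289). The mismatch repair gene Msh3 fell by 0.46, the translesion polymerase gene Rev1 by 0.32 and the repair scaffold gene Xrcc1 by 0.27.

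In end joining, 2 of 14 genes fell and 1 rose. Lig4, the ligase of that pathway, stood at 4944, 5353, 4307, 4705 and 4868 in WT and 2988, 3082 and 3079.8 in Ep300-KO (log2 -0.66, SE 0.069, adjusted p = 0.000106). The Ep300-KO libraries were nearly equal and all below WT, and Crebbp-KO stood at 5835 ± 378. Rag1, a recombinase gene of lymphocyte precursors, stood at 16.7 to 41.2 and 2.56 to 9.59. Trp53bp1, which protects broken ends from resection, rose by 0.19 (adjusted p = 0.0401), a call that ended without p300-KO_287, p300-KO_289, WT_4, WT_41 or WT_46 (adjusted p up to 0.138). Of 30 genes of homologous recombination and the Fanconi pathway 4 fell and 0 rose (median -0.10), with Fancl at log2 -0.27. The share called was 13.3%, near the 11.9% of all tested genes. At an unadjusted p below 0.05 and with DESeq2 2 genes were higher, and with edgeR 0. Those 4 became 1 without any 1 of the Ep300-KO libraries or WT_288, and 2 without WT_46 or WT_7.

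In the lists of the endoplasmic reticulum (ER) and the early secretory route, more transcripts rose than fell. Of 29 ER chaperones and disulfide enzymes 7 rose and 2 fell (median log2 0.21). Of 20 genes of ER-associated degradation 6 rose and 1 fell (median 0.06), of 36 genes of translocation and N-glycosylation 5 rose and 0 fell (median 0.10), and of 38 genes of transport between ER and Golgi 8 rose and 0 fell (median 0.11). In the ER-Golgi list 30 of 38 log2 changes were above 0. At an unadjusted p below 0.05, 2 translocation and 0 ER-Golgi genes were lower, with 1 and 0 called by DESeq2 and 0 by edgeR. The 4 counts of genes that rose moved with single libraries. Without p300-KO_289 they were 3, 3, 1 and 3, without p300-KO_18 4, 2, 2 and 5, and without p300-KO_287 9, 1, 4 and 4. Without WT_4 they were 12, 4, 5 and 11, without WT_288 5, 3, 2 and 6, without WT_46 7, 4, 3 and 6, without WT_7 6, 4, 2 and 7, and without WT_41 5, 3, 4 and 5. Without WT_46 and p300-KO_18 together they were 6, 2, 1 and 4.

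Hsp90b1, the ER chaperone GRP94, stood at 21777, 21320.5, 27765, 22600.1 and 23826 in WT and 41769, 33062 and 35870.2 in Ep300-KO. The 3 Ep300-KO libraries were above all WT libraries, of which WT_4 was the highest (log2 0.65, SE 0.088, adjusted p = 0.000632). Pdia4 and Pdia6, protein disulfide isomerases, rose by 0.64 and 0.49 (adjusted p = 0.00106 and 0.00454). Hspa5, the chaperone BiP that senses unfolded protein, stood at 37961, 35541, 42071, 32388 and 34524 in WT and 50839, 38732 and 47076 in Ep300-KO. Here p300-KO_287 lay within the WT range, and the call (log2 0.32, adjusted p = 0.0449) ended without p300-KO_18, p300-KO_289, WT_288, WT_41, WT_46 or WT_7 (adjusted p up to 0.186). The paralogous oxidases that recharge disulfide isomerases moved apart, Ero1l at 1628 to 2011 and 2212 to 2504 (log2 0.37, not called without p300-KO_289), and Ero1lb at 14354 to 16715 and 11499 to 12171 (log2 -0.41). Selenos, a membrane protein of ER-associated degradation, rose by 0.35, and Kdelr1, the receptor that returns chaperones to the ER, by 0.26. Ergic3 of the intermediate compartment rose by 0.29 and Golgb1, the Golgi tether giantin, by 0.36. In translocation, Stt3a, a catalytic subunit of oligosaccharyltransferase, rose by 0.25, Ssr4 of the translocon-associated complex by 0.28, and Sec61a1, the channel itself, by 0.19. The call of Golgb1 ended without p300-KO_287 (adjusted p = 0.0675), that of Stt3a without p300-KO_289 (0.0535) and that of Ssr4 without p300-KO_18 (0.0619). The call of Sec61a1 ended without p300-KO_18, p300-KO_289, WT_288 or WT_7 (adjusted p up to 0.101).

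**Figure D4:**
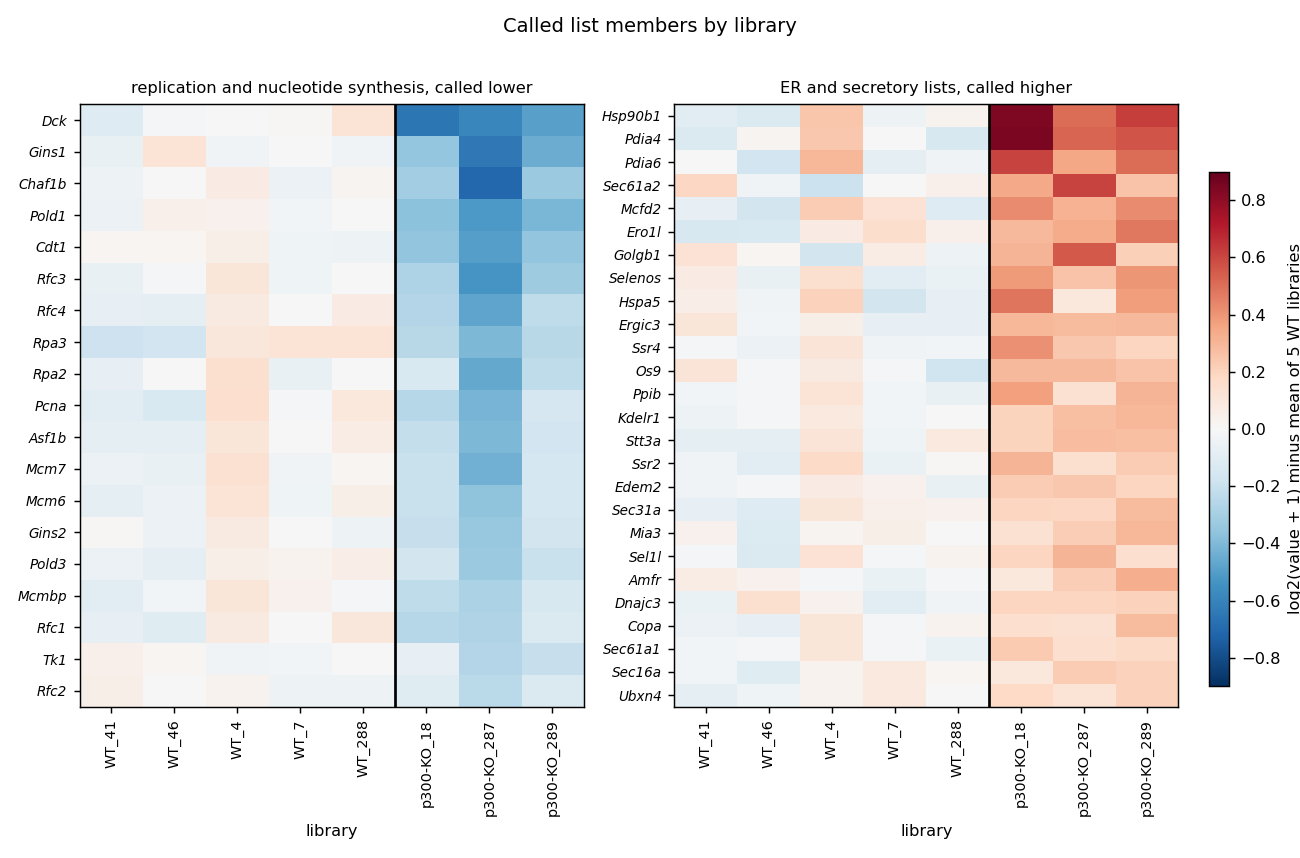
19 of the 20 replication and nucleotide genes called lower (left) and the 26 ER and secretory genes called higher (right) in each of the 8 libraries, as log2(value + 1) minus the mean of the 5 WT libraries. Blue is lower and red higher than that mean; p300-KO_287 is the deepest blue for most replication genes, and WT_4 is the reddest WT library for most ER genes.

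The factors that raise secretory capacity were examined in the list of the unfolded protein response and ATF4 targets, where 5 of 25 rose and 2 fell. Xbp1, the transcription factor of the ER and secretory program, stood at 12099, 11261, 13410.0, 12039 and 11601 in WT and 17255, 17045 and 16255 in Ep300-KO. The groups did not overlap (log2 0.48, SE 0.057, adjusted p = 0.000231). Ern1, which encodes the sensor IRE1 that splices Xbp1 mRNA, stood at 496, 520.0, 456, 432 and 509 and 920.4, 1098 and 778 (log2 0.94, adjusted p = 0.000308). Creb3l2, an ER-bound factor that is cleaved to activate secretory genes, stood at 122, 165, 115, 145 and 117 and 566, 498 and 365. Each of its Ep300-KO libraries was more than 2 times every WT library (log2 1.83, SE 0.19, adjusted p = 0.000114). Xbp1, Ern1 and Creb3l2 were also above Crebbp-KO (log2 0.46, 0.58 and 1.65, adjusted p = 0.00097, 0.0149 and 0.000601). Of the ATF4 arm, Sesn2 rose by 0.52, whereas Atf3, a stress-induced repressor, stood at 73.2 to 135 in WT and 25.6 to 55 in Ep300-KO (adjusted p = 0.0125, 0.0631 without p300-KO_287, and not called without p300-KO_18). The 2 genes that fell became 0 without p300-KO_18 or p300-KO_287 and 1 without WT_288 or WT_4.

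The promoters of ER genes that rose are shown because the ER stress element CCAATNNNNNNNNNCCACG is bound by factors of the unfolded protein response. It was searched on both strands in the same promoter table. It was found for 4 of the 21 matched ER genes that rose (26 rose in all), for 9 of 101 matched tested genes of the 4 lists (8.91%) for 18 of the 10207 matched tested genes (0.176%) and in 39 of all 32851 promoters (0.119%). The XBP1 core ACGTGG, which can overlap this element, was found for 38 of the 101 (37.6%) and 7 of the 21, against 12.9% of matched tested genes and 8.31% of all promoters. All 4 are printed as the 250 bases before the start, with CCAAT and CCACG (or their complements ATTGG and CGTGG) in capitals, at chr10:86705445-86705694, minus strand for Hsp90b1, chr12:17266339-17266588, plus strand for Pdia6, chr14:118937682-118937931, plus strand for Dnajc3, a cochaperone of BiP, and chr2:34771840-34772089, plus strand for Hspa5.
Hsp90b1: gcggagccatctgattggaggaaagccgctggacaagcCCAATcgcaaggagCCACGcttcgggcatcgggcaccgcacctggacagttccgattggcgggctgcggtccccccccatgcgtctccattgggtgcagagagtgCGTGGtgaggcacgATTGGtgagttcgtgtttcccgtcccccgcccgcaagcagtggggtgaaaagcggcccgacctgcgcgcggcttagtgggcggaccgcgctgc
Pdia6: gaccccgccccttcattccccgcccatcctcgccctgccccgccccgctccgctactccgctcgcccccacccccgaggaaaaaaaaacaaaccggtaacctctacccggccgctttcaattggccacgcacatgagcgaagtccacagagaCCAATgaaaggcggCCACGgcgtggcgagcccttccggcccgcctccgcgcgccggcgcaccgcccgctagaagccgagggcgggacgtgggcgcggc
Dnajc3: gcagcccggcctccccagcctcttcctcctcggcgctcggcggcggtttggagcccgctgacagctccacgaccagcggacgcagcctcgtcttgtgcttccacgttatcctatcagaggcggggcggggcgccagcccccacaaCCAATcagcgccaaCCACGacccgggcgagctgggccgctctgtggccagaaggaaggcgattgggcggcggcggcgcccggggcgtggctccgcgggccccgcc
Hspa5: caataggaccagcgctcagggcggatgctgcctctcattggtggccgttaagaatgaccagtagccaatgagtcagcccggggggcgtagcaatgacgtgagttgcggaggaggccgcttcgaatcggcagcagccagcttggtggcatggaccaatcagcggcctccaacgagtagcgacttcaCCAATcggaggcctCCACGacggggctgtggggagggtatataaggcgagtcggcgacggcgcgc
Hsp90b1, the ER chaperone with the largest rise of the 4, carries the element 2 times, beginning 212 and 107 bases before the start. Pdia6, Dnajc3 and Hspa5 carry it once, at 98, 105 and 65 bases, with log2 changes of 0.49, 0.20 and 0.32. The call of Dnajc3 (adjusted p = 0.0424) ended without p300-KO_18, p300-KO_287, p300-KO_289, WT_288, WT_4, WT_41 or WT_7 (adjusted p up to 0.121).

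Plasma cell genes moved in both directions, while immunoglobulin genes were called in 1 direction. Of 23 regulators and surface genes of plasma cells 4 rose and 3 fell (median 0.07), and of 13 immunoglobulin constant and J chain genes 5 rose and 0 fell (median 0.32; 0 lower with edgeR, with DESeq2 and at an unadjusted p below 0.05). Sdc1, the plasma cell surface proteoglycan CD138, stood at 137, 68.3, 109.5, 139.6 and 119 in WT and 426, 332 and 274 in Ep300-KO (adjusted p = 0.000886). All Ep300-KO libraries were above WT. Prdm1, the transcription factor BLIMP1 that sets the plasma cell fate, stood at 401, 868, 436, 503 and 495 in WT and 1235, 1714 and 601 in Ep300-KO. Here p300-KO_289 lay below WT_46, and the difference did not pass (log2 1.06, adjusted p = 0.0934). Cd93, a surface receptor of plasma cells, fell from 478, 381, 459, 487 and 493 to 174, 136 and 166 (log2 -1.53, adjusted p = 0.000145), and Itga4, an integrin chain, fell by 0.48. The 4 that rose became 2 without p300-KO_18, with or without WT_46.

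Among immunoglobulin genes, Ighe, the epsilon heavy chain constant gene, stood at 518, 1899, 934, 846 and 739 in WT and 4147, 5179 and 2933 in Ep300-KO. WT_46 was the highest WT library and still below every Ep300-KO library (log2 2.15, adjusted p = 0.00261). Igkc, the kappa light chain constant gene, stood at 170714 to 180471 and 213745 to 246499 (log2 0.38), and the lambda genes Iglc1 and Iglc2 rose by 0.65 and 1.02, with near-identical sequences that can share reads. Over the 11 plasma cell markers counted, the summed level was 73443 to 85636 in WT and 89303 to 101462 in Ep300-KO, and 4 of 8 tested markers were called higher (Sdc1, Jchain, Xbp1 and Cxcr3; 2 without p300-KO_18) and 0 lower, with 1 lower at an unadjusted p below 0.05. The summed levels did not overlap, and Jchain, at 37387 to 46947 in WT and 47630 to 58116 in Ep300-KO, made up the largest part of them. The call of Jchain ended without p300-KO_18, p300-KO_287, WT_4, WT_41, WT_46 or WT_7 (adjusted p up to 0.156). Of the markers not called, Slamf7 stood at 20229 to 22494 in WT and 17216 to 19707 in Ep300-KO, Irf4 at 3314 to 4327 and 3484 to 4857, and Tnfrsf17 and Ly6c2 at most at 10.2 and 21.0 in all 8 libraries. In bulk libraries, more cells of a type and more RNA per cell cannot be told apart, and the part of plasma cells in the ER results was not tested.

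**Figure D5:**
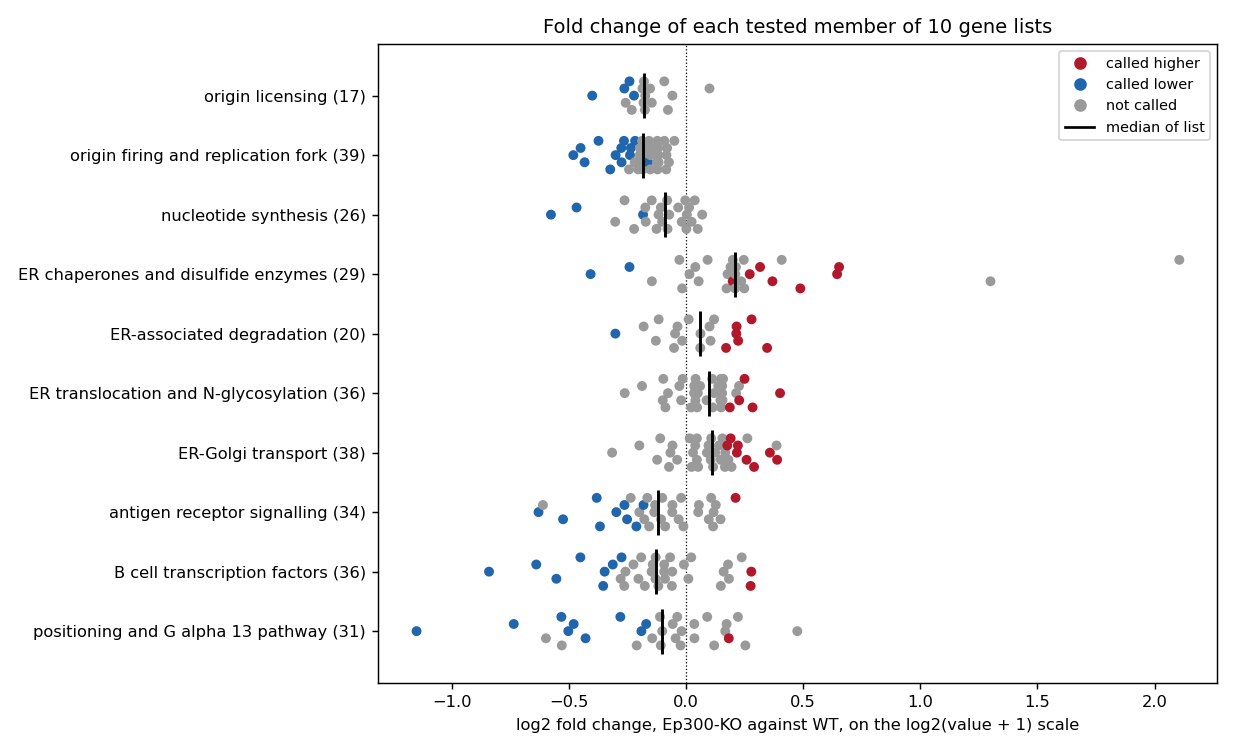
Log2 fold change, Ep300-KO against WT, of every tested member of 10 gene lists, with called genes in red (higher) or blue (lower) and the median of each list as a black line. The medians lie at -0.18 for both replication lists and between 0.06 and 0.21 for the 4 ER lists; Selenom (2.11) and Fkbp11 (1.30), both low genes, did not pass the test.

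In the lists of B cell identity and antigen receptor signalling, more transcripts fell than rose. Of 36 B cell transcription factors 8 fell and 2 rose (median -0.13). Ets1, which restrains plasma cell differentiation, stood at 59759, 57462, 63963, 61572 and 61579 in WT and 42858, 45560.4 and 45154 in Ep300-KO (log2 -0.45, SE 0.058, adjusted p = 0.000451). Id3, an inhibitor of E proteins, stood at 4623, 4222, 5646, 5752 and 5952 and 2987, 2802 and 2909.6 (log2 -0.84, adjusted p = 0.000672). Both genes had all Ep300-KO libraries below all WT libraries. Tcf3, the E protein E2A that Id3 binds, fell by 0.35, Zeb2 by 0.64 and Foxp1 by 0.55, while Ebf1, a factor of B cell commitment, fell by 0.31 (adjusted p = 0.0386, up to 0.162 and not called without p300-KO_18, p300-KO_289, WT_288, WT_41 or WT_7). Bcl6, the repressor that maintains the germinal center state, stood at 29529 to 37523 in WT and 37014 to 42399 in Ep300-KO (adjusted p = 0.347). The 8 became 5 without p300-KO_18 or p300-KO_289 and 5 without WT_46 and p300-KO_18 together. The 2 that rose, Tcf12 (log2 0.28) and Runx3 (0.28), became 0 without p300-KO_287 or p300-KO_289 and 1 without p300-KO_18, WT_288, WT_41 or WT_7.

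Of 34 genes of antigen receptor signalling 9 fell and 1 rose (median -0.12). Syk, a kinase of the cascade, stood at 80013, 77569, 78584, 75420.3 and 71325 in WT and 52527, 45692 and 50439 in Ep300-KO. The groups did not overlap (log2 -0.63, SE 0.057, adjusted p = 4.69e-05), and Syk was also below Crebbp-KO (70967 ± 2141, adjusted p = 0.00042). Its adaptor Blnk fell by 0.37, the kinase gene Tec by 0.38, the exchange factor gene Vav2 by 0.26, and Itpr1, the calcium release channel of the ER, by 0.52. Against Crebbp-KO the list went both ways, with 7 of the 34 genes called higher in Ep300-KO and 5 lower. The 9 became 5 without p300-KO_18 and 8 without WT_46 and p300-KO_18 together. Inhibitory receptors and phosphatases showed 3 of 26 lower and 1 higher (15.4% called, beside 11.9% of all tested genes). The MAP kinase phosphatase gene Dusp2 stood at log2 -0.47 and the lipid phosphatase gene Inpp5d at -0.19. The 3 became 1 without p300-KO_18.

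Genes that place B cells in the follicle included 9 of 31 that fell and 1 that rose (median -0.10). Gna13, the G protein that confines germinal center B cells to the follicle, stood at 37605, 41361, 38883, 38564 and 39849.5 in WT and 31066, 32985 and 32908 in Ep300-KO. The fall was small next to the level but exceeded the spread (log2 -0.28, SE 0.046, adjusted p = 0.00215). S1pr2, a receptor that couples to it, stood at 36464 to 41178 and 42566 to 43107 (log2 0.18, adjusted p = 0.0408, up to 0.117 and not called without p300-KO_18, p300-KO_287, p300-KO_289, WT_288, WT_4, WT_41 or WT_7, nor with edgeR). Cxcr5, the chemokine receptor of follicular entry, fell by 0.43, P2ry10, a receptor for lysophosphatidylserine, by 0.50, and Rgs10, a regulator of G protein signalling, by 0.53. Rgs13, a regulator of the same family, stood at 15889, 13363, 16178, 16273 and 17869 in WT and 8385, 10236 and 4242 in Ep300-KO. Its Ep300-KO libraries differed by more than 2-fold among themselves, and its call (adjusted p = 0.0339) ended without p300-KO_18, p300-KO_289, WT_288, WT_4, WT_41 or WT_7 and with edgeR. The 9 became 6 without p300-KO_18, p300-KO_289 or WT_41 and 5 without WT_46 and p300-KO_18 together.

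The light zone and dark zone lists, which share members with those above, gave no single direction. Of 31 light zone genes 2 fell (Basp1, at 25224 to 31958 in WT and 10362 to 16920.4 in Ep300-KO, and the adhesion receptor gene Cd44, log2 -0.33) and 1 rose (the chemokine gene Ccl22, log2 2.24). Ccl22 stood at 36.8 to 96 in WT and 191, 248 and 537 in Ep300-KO, and it was the 1 gene that rose among 28 of the NF-kB and CD40 response, where Fas was the 1 that fell (-0.33, not called without p300-KO_289). Of 22 dark zone genes 4 fell and 1 rose, and the 4 became 2 without p300-KO_18, WT_41 or WT_7. Of 22 genes of the cAMP and CREB response, for which CREBBP and EP300 are coactivators, 4 fell and 1 rose (median -0.05). The 4 were Gem (log2 -0.54), a small GTPase, Rgs2 (-0.42), and the phosphodiesterases Pde4b (-0.54) and Pde4d (-0.67) that degrade cAMP. Pde4d lost its call without p300-KO_287, p300-KO_289 or WT_41 (adjusted p up to 0.122). In MHC class II presentation 0 of 15 genes and in class I presentation 0 of 22 were called by limma or edgeR in Ep300-KO against WT. The median log2 change was -0.06 for class II and -0.25 for class I, where 18 of 22 changes were below 0. The summed class I level was 276552 to 511927 in WT, a wide spread, and 274940 to 296153 in Ep300-KO. At an unadjusted p below 0.05, 1 class II and 8 class I genes were lower, and DESeq2 called 1 and 3 lower. Against Crebbp-KO, 8 of the 15 class II genes and 12 of the 31 light zone genes were called higher in Ep300-KO, with 0 and 1 lower. Over all genes 1556 (9.42%) were called in that comparison, and it shares the Ep300-KO libraries with the comparison with WT.

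Chromatin regulators changed in small numbers. Called were 15.2% of the acetyltransferase list, 16.1% of the deacetylase list and 25.0% of the polycomb list, beside 11.9% of all tested genes. Of 33 lysine acetyltransferases and partners, Ep300 included, 2 rose and 3 fell. Kat6b, an acetyltransferase of histone H3, rose by 0.45 and Brpf3, a scaffold of such complexes, by 0.30, while Cited2, which binds EP300 and CREBBP, fell by 0.39 (adjusted p = 0.00109). Of 31 deacetylases and corepressors 2 rose and 3 fell, with Bcorl1 at log2 0.94, Sirt5 at 0.61, Hdac4 at -0.43 and Tbl1xr1 at -0.37. Of 32 polycomb genes 5 fell and 3 rose. Besides Cbx7 and Cbx6, which lie near Ep300, the fall of Jarid2 (-0.36) and the rise of Scmh1 (0.68) and Ezh1 (0.38) were called under all 21 alternatives, and the 5 became 3 without p300-KO_18.

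Metabolic and growth lists differed in the share of genes called, which was 11.9% over all tested genes. The share lay below this for the respiratory chain and near it for glycolysis. It lay above 11.9% for the MYC, sterol and p53 lists, and was largest for the p53 list. Of 25 sterol synthesis genes 4 fell and 1 rose (median -0.18, 23 of 25 below 0), but the 4 became 7 without p300-KO_18, 6 without WT_288, 1 without WT_4, WT_41 or WT_7, and 0 without p300-KO_287 or p300-KO_289. Glycolysis had 2 of 22 higher, among them the glucose transporter gene Slc2a3 (log2 0.73), and 1 lower, and the nuclear genes of the respiratory chain 1 of 36 lower. In the MYC and ribosome biogenesis list 3 of 38 rose and 3 fell. Mxd4, an antagonist of MYC at its target sites, stood at 6449, 4726, 4934, 5759 and 4901 in WT and 8492, 10195 and 9088 in Ep300-KO (log2 0.80, adjusted p = 0.00156), with no overlap, and Mxi1, another antagonist, rose by 0.76. Myc itself stood at 3720.0 to 5850.2 and 5183 to 5801 (adjusted p = 0.3). Of 25 p53 pathway genes 6 rose and 2 fell, with Phlda3 at 1.13, Zmat3 at 0.55, Sesn2 at 0.52 and Ccng1 at 0.35, and with Cdkn1a and Fas on the lower side. The 6 became 2 and 3 without p300-KO_287 and p300-KO_289, and 4 without WT_46 and p300-KO_18 together. Ccng1 was not called without p300-KO_287 or p300-KO_289, and Phlda3 not without p300-KO_287.

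Markers of other cells were checked for the same libraries. Of 18 tested macrophage and monocyte markers 1 rose (Ctsb, log2 0.27) and 1 fell (Mpeg1, -1.18, not called without p300-KO_289), and their summed level was 9967 to 15509 in WT and 9921 to 11123 in Ep300-KO. Lyz2, the lysozyme gene of macrophages, reached 1014 in WT_46, while the remaining WT libraries held 227 or less and Ep300-KO 105 or less. The dendritic cell list had 1 of 5 lower, Flt3, at 4141 to 5407 in WT and 2512 to 2631 in Ep300-KO (log2 -0.86). The T cell list had Lck lower (log2 -0.89) and Thy1 higher, with a summed level of 15569 to 18564 in WT and 11067 to 11926 in Ep300-KO. Most of that sum came from Lck, Cd2 and Cd247. Lck, a kinase of T cell receptor signalling, stood at 8782 to 10932 in WT with the T cell receptor genes Cd3d and Cd3e near 0. The erythroid list had 1 of 6 lower, Hbb-bt, and its summed level was 554 to 817 in WT and 286.6 to 531 in Ep300-KO, without overlap. Slc4a1 of that list was at 0 in all 8 libraries. The stromal and endothelial list had 1 of 3 higher, Pecam1 (log2 0.27, not called without p300-KO_18, p300-KO_287, p300-KO_289, WT_288 or WT_4). The list's summed level was 3501 to 4284 in WT and 4519 to 5024 in Ep300-KO, also without overlap, with Col1a2 and Col3a1 at 0. Pecam1, at 3234 to 4128 in WT and 4416 to 4904 in Ep300-KO, made up most of that sum. The log2 changes of the other 2 tested members were below 0, with Cdh5 at 85.4 to 124 and 74.2 to 86.3. The part of other cells in the results above was not tested.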

How the data were processed

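Per the labels, RNA of sorted cells was sequenced from TruSeq RNA v2 libraries, which mark no strand. Per the submitters' processing notes, CASAVA 1.8, HISAT2, featureCounts and DESeq2 were used with mm10. The deposited signal is the authors' read counts after division by a size factor of each library; dividing by the worth of 1 read gave whole reads for 100% of values (tolerance 1e-06), with DESeq2 size factors equal to those deposited. limma 3.58.1 (trend, no covariate, two-sided) was fitted to log2(value + 1) of 16515 genes with a mean of at least 10 in all 11 libraries, which share 1 estimate of spread. Fold changes on this scale understate changes of low genes. In simulated counts for this comparison (16515 genes), 46.5%, 68.0% and 89.5% of 200 genes changed by 1.5, 2 and 4 fold were called. Of those calls 4.12%, 5.56% and 4.28% were false. The data gave 1970 calls, and no mixed or outlying library was simulated, so recovery in the data can differ. edgeR 4.0.16, DESeq2 1.42.0 on recovered reads and other settings were alternatives. Named genes were both targets, the 12 largest called, non-overlapping changes each way with a mean of at least 50 in the higher group (no predicted, pseudo-, variable segment or sex-linked genes), up to 5 called genes of each list and 8 near Ep300 by p, and genes whose role a list needs. The members and lists were chosen with earlier results of these data known. Positions are from GENCODE M21 (mm10), promoters from RefSeq GRCm38.p6. Results for a few genes are not reported here.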

Additional observations from a re-analysis of the deposited data

Results flagged for a closer look

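For 12 of 189 named genes (6.35%) a single WT library lay far from the other 4, by a gap, taken as a share of the group's range, above Dixon's 95% critical value, which chance gives for about 1 in 20 groups. In 7 of the 12 that library was WT_46. It was high for Gpm6a (1238 normalized reads, 275 to 337 in the other WT libraries), Hbb-bt (502, 233 to 301), S1pr2 (41178, 36464 to 37378), Gbp3 (2877, 1520 to 1815) and Prdm1 (868, 401 to 503). It was low for Dusp2 (9038, 10609 to 11181) and Bcl6 (29529, 35859 to 37523). WT_4 was high for Ppib (7173, 6299 to 6548), Ssr4 (2971, 2643 to 2724), Sec61a1 (12779.8, 11385 to 11757), Manf (6380.1, 5118 to 5307) and Gem (1368, 1247 to 1261). The first 4 of these encode ER proteins. The groups of 3 libraries were not tested in this way.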

How the results depend on the processing

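Of 181 named genes called in Ep300-KO against WT, 107 kept the call under every alternative that tested them (20 or 21), and 72 lost it without at least 1 library. The 1970 calls kept their direction under every alternative that tested them, all of which reuse the same libraries. The number of calls ran from 1169 to 2027 in fits without 1 library, against 2692 with DESeq2. Calls of at least 2-fold ran from 297 to 427 without 1 library and from 295 to 471 over all alternatives. Against Crebbp-KO, 1556 calls became 2350 with DESeq2, 2808 with library weights and 849 to 1241 without 1 Ep300-KO library; no Crebbp-KO library was left out. The 42 calls within 5 Mb of Ep300 ran from 24 to 43 without 1 library and to 49 with DESeq2. Without WT_46 and p300-KO_18 together the exact permutation p could not go below 0.0667, which was the value for Ep300 (log2 -0.55), and Crebbp stood at 0.27 (p = 0.133). Without 1 library, the Crebbp difference ran from 0.20 to 0.26. No paired analysis was possible because the labels give the groups no shared replicate numbers. Depth did not fall below 53550726 reads, and genes under a mean of 10 were not tested.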
